A study of Mus musculus with 37 samples.

Results

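The 10 genes followed here, all of the endoplasmic reticulum (ER) stress response, were measured in the mouse mammary gland after exposure to silicon ions or gamma rays: Hspa5, Hsp90b1, Pdia4, Pdia6, Dnajb9, Sdf2l1, Calr, Creld2, Herpud1 and Xbp1. They were chosen by symbol, with earlier results of these data known. Each gene was read from the probe set annotated with that symbol alone, taking the one with the highest mean over 37 arrays where a gene had several. Of the 10 listed genes, 9 had such a probe set, 1 each, out of 18820 genes measured, and all 9 passed the filter on low values that kept 13174 genes. The only Pdia4 probe set also carries the symbol of a microRNA gene, so no value is given for Pdia4.

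The groups were intact inguinal mammary glands of female BALB/c mice that received 10 cGy of Si, 30 cGy of Si, 100 cGy of gamma rays or a sham exposure at 10 weeks of age. Silicon ions, here at 350 MeV/amu, ionize densely along their tracks, and gamma rays ionize sparsely. Glands were taken 1, 4 and 12 weeks later, with 3 arrays per treatment and week, except sham at week 4 with 4, which makes 12 groups. All mice, sham included, had the inguinal gland of the other side cleared when young and were moved between animal facilities, and in week 1 tissue was taken at the irradiation site but in weeks 4 and 12 after the return, so week and collection site cannot be told apart. The labels do not say that replicates came from separate animals, so a p-value here measures how these samples spread, and that spread may be technical.

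The ER folds proteins that are secreted or set into membranes, and unfolded protein there is sensed by IRE1, PERK and ATF6. IRE1 splices the messenger RNA of the transcription factor XBP1, ATF6 is released by proteolysis and PERK slows translation, and the factors made or freed switch on chaperones, folding enzymes and the machinery that sends misfolded protein to the proteasome. The gland's epithelium depends on this system when it secretes milk, and the mice here carried no label of pregnancy or lactation. The genes fall into roles: Hspa5 (BiP) and Hsp90b1 (GRP94) are the main lumenal chaperones, Calr holds glycoproteins and calcium, Pdia4 and Pdia6 form and reshuffle disulfide bonds, Creld2 has been linked to the same chemistry, Dnajb9 (ERdj4) and Sdf2l1 work as partners of BiP cycles, Herpud1 belongs to ER-associated degradation, and Xbp1 encodes the transcription factor.

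The promoter elements by which this response is known are shown first, because they divide the genes by sequence and not by their values on the arrays. All 10 symbols had a promoter window in the RefSeq table (GRCm38.p6), which runs from 250 bases before to 50 bases after the annotated start. Both strands were searched for the ER stress response element, ERSE (CCAAT, any 9 bases, CCACG), whose ends are known to bind NF-Y and ATF6 or XBP1, and for ERSE-II (ATTGG, any 1 base, CCACG). In each line the fixed letters of the element are in capitals, with 20 bases on either side in lower case, read toward the gene. The capitals CGTGG and ATTGG in that order mark an ERSE on the opposite strand.
Hspa5, ERSE, chr2:34772005-34772063, plus strand: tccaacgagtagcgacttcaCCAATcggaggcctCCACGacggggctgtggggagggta
Hsp90b1, distal ERSE, chr10:86705618-86705676, minus strand: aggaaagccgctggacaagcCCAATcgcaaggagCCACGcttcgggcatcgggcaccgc
Hsp90b1, proximal ERSE, chr10:86705513-86705571, minus strand: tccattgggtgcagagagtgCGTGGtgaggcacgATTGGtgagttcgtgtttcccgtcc
Pdia6, ERSE, chr12:17266471-17266529, plus strand: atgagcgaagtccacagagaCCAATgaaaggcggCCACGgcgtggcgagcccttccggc
Calr, ERSE, chr8:84847055-84847113, minus strand: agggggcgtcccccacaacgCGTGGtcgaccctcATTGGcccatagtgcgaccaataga
Creld2, ERSE, chr15:88819500-88819558, plus strand: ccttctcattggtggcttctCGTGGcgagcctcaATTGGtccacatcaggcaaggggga
Herpud1, ERSE-II, chr8:94386357-94386407, plus strand: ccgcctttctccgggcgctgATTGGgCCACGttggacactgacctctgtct

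The ERSE was found in 5 of the 10 windows, those of Hspa5, Hsp90b1, Pdia6, Calr and Creld2, and in 0.119% of all 32851 windows (39 windows). The match nearest a start began 65 bases before that of Hspa5, and the distal match of Hsp90b1, which holds 2, began 212 bases before it. ERSE-II was found in Herpud1 alone among the 10 genes, beginning 52 bases before the start, and in 0.0365% of all windows. The core of the unfolded protein response element (TGACGTGG) was in 0 of 10 windows and in 0.676% of all, and the cyclic AMP element (TGACGTCA) in 0 of 10 and in 1.79% of all. The 5-letter box CCACG, which is part of both ERSE forms, was in 9 of 10 windows, against 32.8% of all windows, and Xbp1 was the gene without it. A match is a stretch of letters and not a bound site, and these matches come from the reference, not from the mice.

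**Figure D1:**
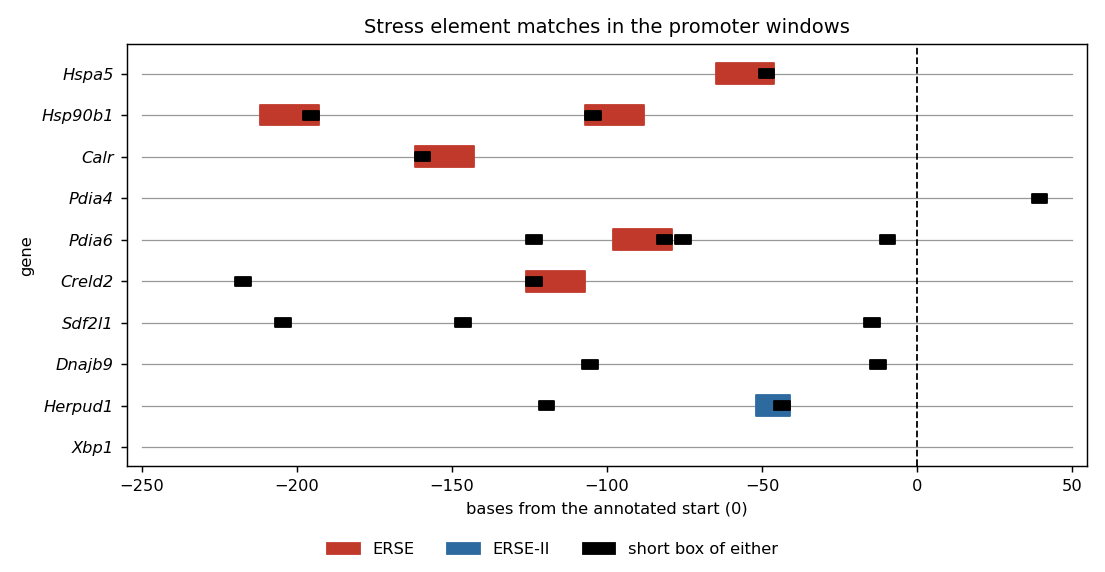
Matches to ERSE (red), ERSE-II (blue) and the CCACG box (black) in the promoter window of each of the 10 genes, one line per gene, with the distance in bases from the annotated start on the x axis. ERSE matches lie before the start in Hspa5, Hsp90b1, Calr, Pdia6 and Creld2, and the ERSE-II match lies before that of Herpud1.

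Array values are log2 expression values made by RMA, and a log2 value is comparable for 1 gene between arrays but not between genes. Every difference is a log2 difference from a limma model of all 37 arrays, given as first-named group minus the other with its SE. A gene is called at an adjusted p under 0.05, by Benjamini-Hochberg over the 13174 genes tested within a comparison. Array medians lay between 5.04 and 5.25, and correlations between arrays between 0.948 and 0.987. The lowest median correlations with the other arrays were 0.964, of sham week 4 replicate 1, and 0.969, of sham week 1 replicate 3. On every array the mean level of markers was at least 8.05 for luminal and 7.08 for basal epithelium, the cells that define a mammary gland, while the mean level of 9 B cell markers ranged within sham week 1 alone from 5.28 to 8.98. In such whole tissue, fewer cells of a type and less RNA per cell cannot be told apart.

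In week 1 all 10 cGy Si arrays lay above all sham arrays for the lumenal chaperones Hspa5 and Hsp90b1, but no gene of the list passed the test. Hspa5, the ER's Hsp70, had 10.20, 10.64 and 10.44 on the 10 cGy Si arrays, against 9.85, 9.82 and 9.75 on the sham arrays. The groups did not overlap, and the difference was 0.62 ± 0.17, a 1.54-fold level (adjusted p = 0.270). Hsp90b1, the ER's Hsp90, had 9.94, 10.15 and 10.04 after 10 cGy Si, against 9.71, 9.73 and 9.45 in sham, again without overlap, a difference of 0.41 ± 0.11 (adjusted p = 0.238). Calr, the calcium-binding lectin chaperone, had 9.95, 10.15 and 9.96 after 10 cGy Si, against 9.97, 10.00 and 9.74 in sham. Those groups overlapped, and the difference of Calr was 0.11 ± 0.13 with a 95% interval from −0.15 to 0.38. Without sham replicate 3 the difference of Hsp90b1 was 0.32 and that of Calr 0.03.

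Among the folding enzymes and the partners of BiP, Creld2 and Dnajb9 separated the groups while Pdia6 and Sdf2l1 did not. Creld2 had 8.45, 8.60 and 8.29 after 10 cGy Si, against 7.86, 8.05 and 7.72 in sham, a difference of 0.57 ± 0.16 (adjusted p = 0.265). Dnajb9, a J-domain cofactor of BiP that also restrains IRE1, had 8.61, 8.78 and 8.61 after 10 cGy Si, against 7.96, 8.21 and 8.08 in sham, a difference of 0.58 ± 0.17 (adjusted p = 0.315). No array of the sham group reached the lowest 10 cGy Si array for either gene. Sdf2l1, a subunit of ER chaperone complexes, had 8.20, 8.38 and 7.46 after 10 cGy Si, against 7.33, 6.56 and 7.58 in sham. Its difference of 0.86 ± 0.34 was the largest of the 9 genes and also the least precise (adjusted p = 0.757), and it ranged from 0.56 without sham replicate 2 to 1.13 without 10 cGy Si replicate 3. Pdia6, a protein disulfide isomerase, had 8.46, 8.77 and 8.32 after 10 cGy Si, against 8.45, 8.33 and 8.0 in sham, and differed by 0.26 ± 0.19 (adjusted p = 0.971), or by 0.13 without sham replicate 3.

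Herpud1 separated the groups and Xbp1 did not. Herpud1, a membrane protein of the degradation complex, had 8.94, 9.19 and 9.01 after 10 cGy Si, against 8.60, 8.30 and 8.87 in sham, with no overlap and a difference of 0.46 ± 0.12 (adjusted p = 0.238). Without sham replicate 3 the difference of Herpud1 was 0.60 and it was called (adjusted p = 0.0466), and without sham replicate 2 it was 0.32. Under the other alternatives to the model the adjusted p of Herpud1 ran from 0.0236 with array weights to 0.880 with only the groups compared. Xbp1 had 10.29, 10.55 and 10.35 after 10 cGy Si, against 10.33, 10.58 and 9.92 in sham. The groups overlapped, the difference was 0.12 ± 0.11 (adjusted p = 0.995), and it was −0.06 without sham replicate 3. With 1 value per array for Xbp1, its spliced and unspliced forms were not told apart.

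Read as a group, 0 of the 9 genes were called in 10 cGy Si against sham at week 1, where 0.0835% of all genes tested were, 11 genes in all and each higher. At an unadjusted p under 0.05, 6 of the 9 were higher, against 3.58% of all genes tested, and 0 were lower, against 1.83%. The groups did not overlap, with 10 cGy Si higher, for 5 of the 9, against 7.92% of all genes tested. All 9 differences lay above 0, as did those of 52.2% of all genes, and the median difference was 0.46, against 0.01 over all genes. The list was chosen with earlier results of these data known, and several of its genes correlated with each other over the arrays. The counts and shares therefore describe the list and are not a test of it. The count of 6 was 6 again without sham replicate 3, and 6 without both arrays least like the rest, and it ran from 5 to 6 over the fits that left out 1 array of these groups. This comparison turns on the level of sham as well as on that of 10 cGy Si, since sham week 1 had the lowest of the 12 group means for 6 of the 9 genes (Hspa5, Hsp90b1, Pdia6, Dnajb9, Sdf2l1 and Creld2), against 12.8% of all genes tested. The 10 cGy Si arrays of week 1 had the highest of the 12 means for 5 of the 9 (Hspa5, Sdf2l1, Creld2, Herpud1 and Xbp1), against 8.11% of all genes.

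**Figure D2:**
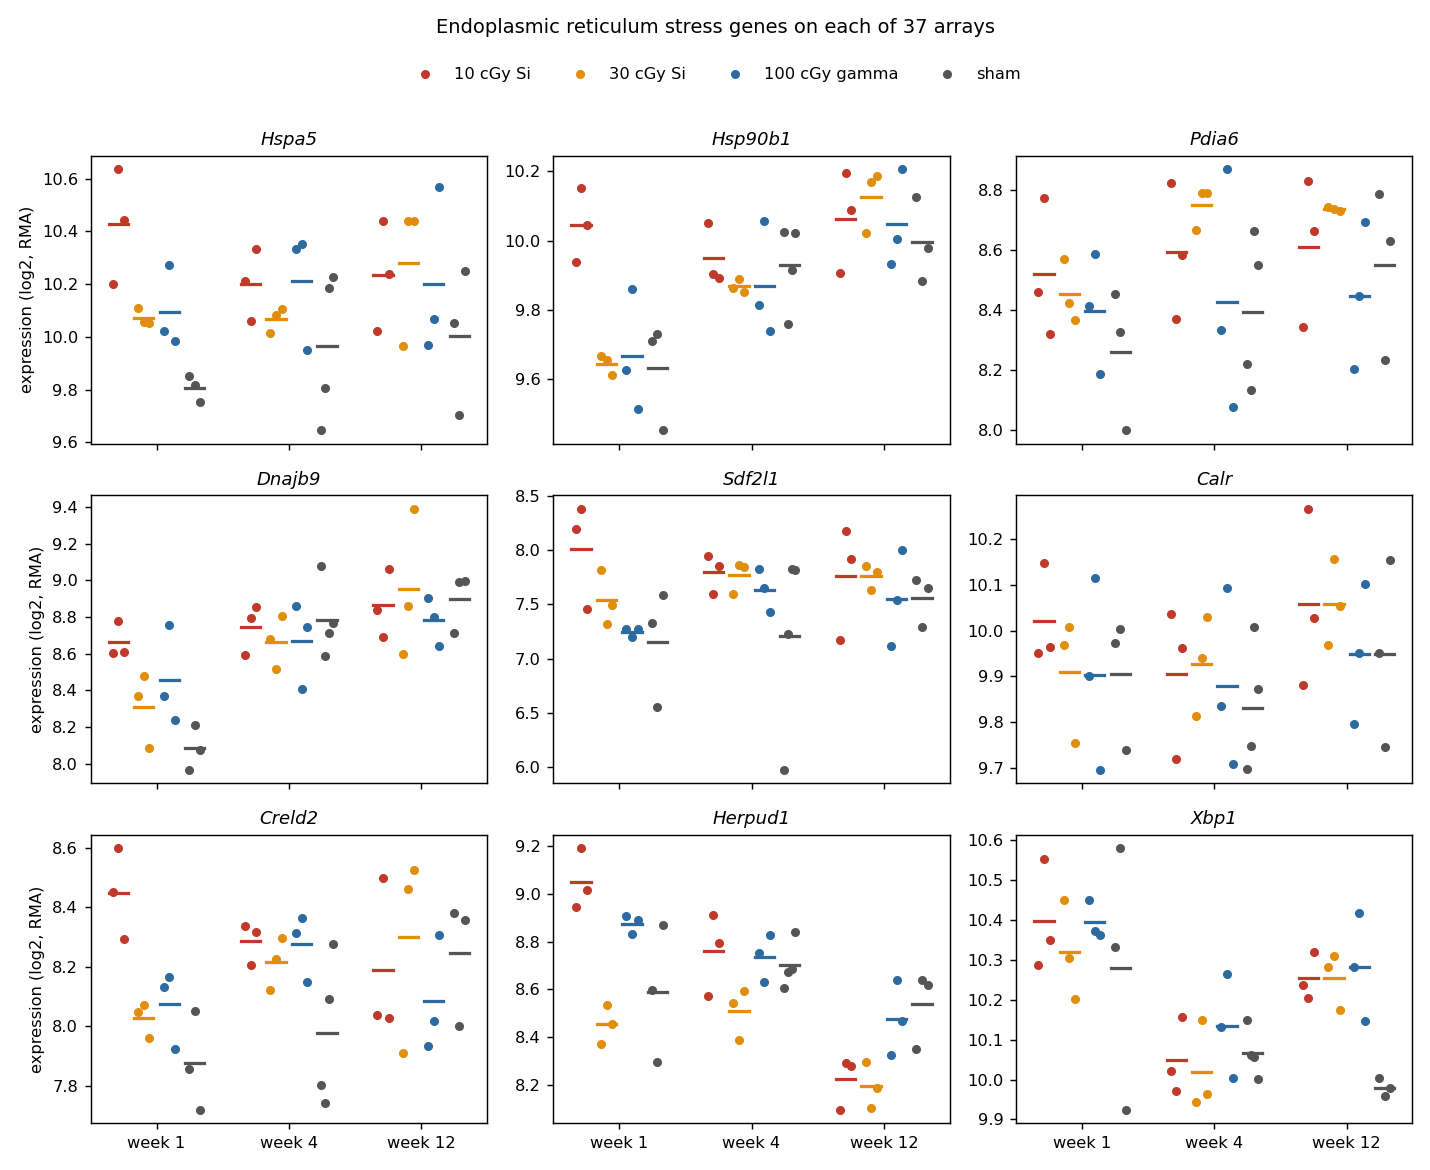
Log2 expression (RMA) of the 9 measured genes on each of the 37 arrays, 1 panel per gene with its own y axis, by week on the x axis and, within a week, 10 cGy Si (red), 30 cGy Si (orange), 100 cGy gamma (blue) and sham (grey); points are arrays and bars are group means. In week 1 the 10 cGy Si arrays lie above the sham arrays for Hspa5, Hsp90b1, Dnajb9, Creld2 and Herpud1, and by week 12 Herpud1 after 10 cGy Si lies between 8.10 and 8.29.

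The other 2 exposures, set against the same sham arrays in week 1, had median differences over the 9 genes of 0.15 after 30 cGy Si and 0.14 after 100 cGy gamma. After 30 cGy Si, 0 of 9 genes were called, where 0.0228% of all genes tested were, and 0 of 9 were higher at an unadjusted p under 0.05, against 8.5% of all genes, nor was any lower, against 3.54%. Of the 9 differences, 8 lay above 0, and the median over all genes was 0.03. Hspa5 had 10.11, 10.06 and 10.05 after 30 cGy Si, all above the sham arrays given earlier, and was the 1 gene of the list whose arrays did not overlap with sham, against 14.5% of all genes tested. After 100 cGy gamma, 0 of 9 were called, where 0.0228% of all genes tested were, and 2 of 9 were higher at an unadjusted p under 0.05, against 4.78% of all genes, while 0 were lower, against 3.04%. Those were Dnajb9, with 8.37, 8.76 and 8.24 and a difference of 0.37 ± 0.17 (adjusted p = 0.594), and Herpud1, with 8.91, 8.83 and 8.89 and a difference of 0.29 ± 0.12 (adjusted p = 0.557). Dnajb9 differed by 0.22 without 100 cGy gamma replicate 2, and Herpud1 by 0.14 without sham replicate 2. The arrays of 100 cGy gamma did not overlap with sham for 2 of the 9 genes, Dnajb9 and Hspa5 (10.02, 10.27 and 9.98), against 8.77% of all genes. These 3 comparisons share the sham arrays, so their values stand side by side and are not independent of each other.

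**Figure D3:**
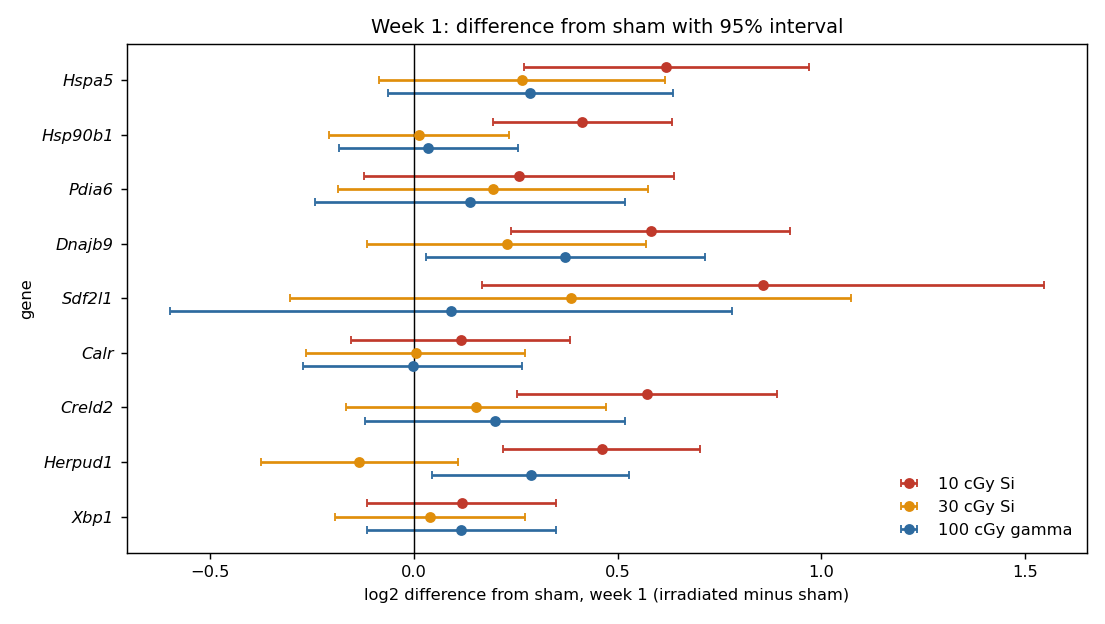
Log2 difference from sham in week 1 (x axis) for each of the 9 genes (y axis) after 10 cGy Si (red), 30 cGy Si (orange) and 100 cGy gamma (blue), from limma, with 95% intervals of single comparisons that are not adjusted for the number of genes. The intervals of 10 cGy Si lie above 0 for 6 genes, those of 30 cGy Si for 0 and those of 100 cGy gamma for 2, Dnajb9 and Herpud1.

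The exposures were also compared with each other, where the sham arrays enter only the estimate of the spread. In 10 cGy Si against 30 cGy Si at week 1, Herpud1 was called among the 9 genes, where 0.0531% of all genes tested were called. Herpud1 had 8.94, 9.19 and 9.01 after 10 cGy Si, against 8.37, 8.53 and 8.46 after 30 cGy Si, and rose by 0.59 ± 0.12, a 1.51-fold level (adjusted p = 0.0457). This call stood close to the threshold: of the 6 fits that left out 1 array of these groups it held only without 10 cGy Si replicate 1, and in the other 5 the adjusted p ran from 0.150 to 0.362, with differences from 0.52 to 0.63. B cell markers had a mean level of 8.40, 4.91 and 7.90 on the 10 cGy Si arrays and from 4.28 to 5.46 after 30 cGy Si, so the groups overlapped. All 9 tested B cell markers lay above 0, with a median difference of 2.19 and 0 called. The array with the level of 4.91, 10 cGy Si replicate 2, was the one with Herpud1 at 9.19. With lymphocyte, muscle, epithelial and brown adipocyte markers as covariates the difference of Herpud1 was 0.53 and it was not called (adjusted p = 0.0996), while over the other alternatives to the model the adjusted p ran from 0.00255 to 0.394, the highest with only the 2 groups fitted. At an unadjusted p under 0.05, 5 of the 9 genes were higher after 10 cGy Si, against 2.75% of all genes tested: Herpud1, Hspa5 (0.35 ± 0.17), Hsp90b1 (0.40 ± 0.11), Dnajb9 (0.35 ± 0.17) and Creld2 (0.42 ± 0.16). That count was 2 without 10 cGy Si replicate 2, 3 without 30 cGy Si replicate 1 and 3 without 30 cGy Si replicate 3. For the same 5 genes the 2 groups did not overlap, against 5.77% of all genes, and all 9 differences lay above 0, against 43.9% of all genes. Of the 18 other ER chaperones and folding enzymes tested, 11 lay above 0, with a median of 0.02.

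In 10 cGy Si against 100 cGy gamma at week 1, 0 of 9 genes were called, where 0 genes of all those tested were called by limma and 2% were higher at an unadjusted p under 0.05. No gene of the list was lower at that threshold, and 3 of the 9 genes were higher: Hsp90b1 by 0.38 ± 0.11, Sdf2l1 by 0.77 ± 0.34 and Creld2 by 0.37 ± 0.16 (adjusted p of 0.929, 1.00 and 1.00). The count was 1 without 10 cGy Si replicate 2 and 1 without 100 cGy gamma replicate 3, where Hsp90b1 remained. Hsp90b1 had 9.94, 10.15 and 10.04 after 10 cGy Si, against 9.63, 9.86 and 9.52 after 100 cGy gamma, so the groups stood apart. For 4 of the 9 genes, Hsp90b1, Sdf2l1, Creld2 and Herpud1, the 2 groups did not overlap, against 5.52% of all genes. All 3 arrays of 10 cGy Si lay above all 9 other arrays of week 1 for Hsp90b1, Creld2 and Herpud1, 3 of the 9 genes, against 0.516% of all genes tested. For Herpud1 they lay above all 34 other arrays of the study, against 0.114% of all genes tested.

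Other genes of the pathway were read from 5 lists, and 0 of their members were called in 10 cGy Si against sham at week 1. Of 18 other ER chaperones and folding enzymes tested, 14 differences lay above 0 with a median of 0.18, and 4 were at an unadjusted p under 0.05, all higher. The differences were 0.45 ± 0.17 for Hyou1, an ER nucleotide exchange factor for BiP, 0.45 ± 0.15 for Manf, a secreted ER stress factor, and 0.29 ± 0.12 for Dnajc3, a BiP cofactor that also inhibits PERK. The remaining one, Uggt1, the sensor of glycoprotein folding, was named after its value was seen (0.20 ± 0.09). Ero1b, an ER oxidase, differed by 0.41 ± 0.26. Of 14 genes of ER-associated degradation, 12 lay above 0 with a median of 0.16, and 3 were higher at an unadjusted p under 0.05. These were Ube2j1, a ubiquitin-conjugating enzyme of the ER membrane (0.26 ± 0.11), Sel1l, the partner of the ligase HRD1 (0.22 ± 0.08), and Edem3, a mannosidase of glycoprotein disposal (0.21 ± 0.09), while Edem1 differed by 0.22 ± 0.11.

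The sensors and the PERK arm were counted in the same way. Of 5 sensors and activating proteases tested, 2 lay above 0 with a median of −0.08, and Eif2ak3, which encodes PERK, differed by 0.28 ± 0.12 (adjusted p = 0.846), the 1 gene of that list at an unadjusted p under 0.05. Ern1, which encodes IRE1, differed by −0.22 ± 0.26. Of 10 genes of the PERK and ATF4 arm, 7 lay above 0 with a median of 0.09, and 0 were at an unadjusted p under 0.05 in either direction. Ddit4 had the largest difference of that arm, 0.61 ± 0.35 (adjusted p = 0.961), followed by Chac1 with 0.39 ± 0.24, Psat1 with 0.35 ± 0.22 and Trib3 with −0.27 ± 0.18. Of 20 genes of the translocon, signal peptidase and oligosaccharyltransferase, which bring proteins into the ER and glycosylate them, 15 lay above 0 with a median of 0.05 and 0 were at an unadjusted p under 0.05, the largest difference being 0.21 ± 0.15 for Ssr3.

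Among the lists read, that of cytosolic heat shock chaperones held called genes. The list also holds Hspd1 and Hspe1, which are chaperonins of mitochondria and not cytosolic. All 13 genes of the list that were tested lay above 0 in 10 cGy Si against sham at week 1, with a median of 0.49. Of the 13, 4 rose: Hsph1 by 1.66 ± 0.25, Hspb1 by 1.33 ± 0.19, Hspa4l by 0.87 ± 0.16 and Hsp90aa1 by 0.79 ± 0.15 (adjusted p of 0.00228, 0.00130, 0.0113 and 0.0181). Hsph1 and Hspa4l are Hsp110-type cofactors of cytosolic Hsp70, Hspb1 is a small heat shock protein and Hsp90aa1 is the inducible cytosolic Hsp90. Hsp90b1, the ER paralog of Hsp90aa1, had the difference of 0.41 given earlier. In 30 cGy Si and in 100 cGy gamma against the same sham arrays, 0 of the 13 were called, and the medians were 0.19 and 0.18. Between 10 cGy Si and 30 cGy Si at week 1, 2 of the 13 were called, with a median of 0.42. For 7 of the 13, all 3 arrays of 10 cGy Si lay above all 9 other arrays of week 1. That held for 3 of the 9 ER genes, so it was not particular to them. For 2 of the 13 the 10 cGy Si arrays lay above all 34 other arrays.

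**Figure D4:**
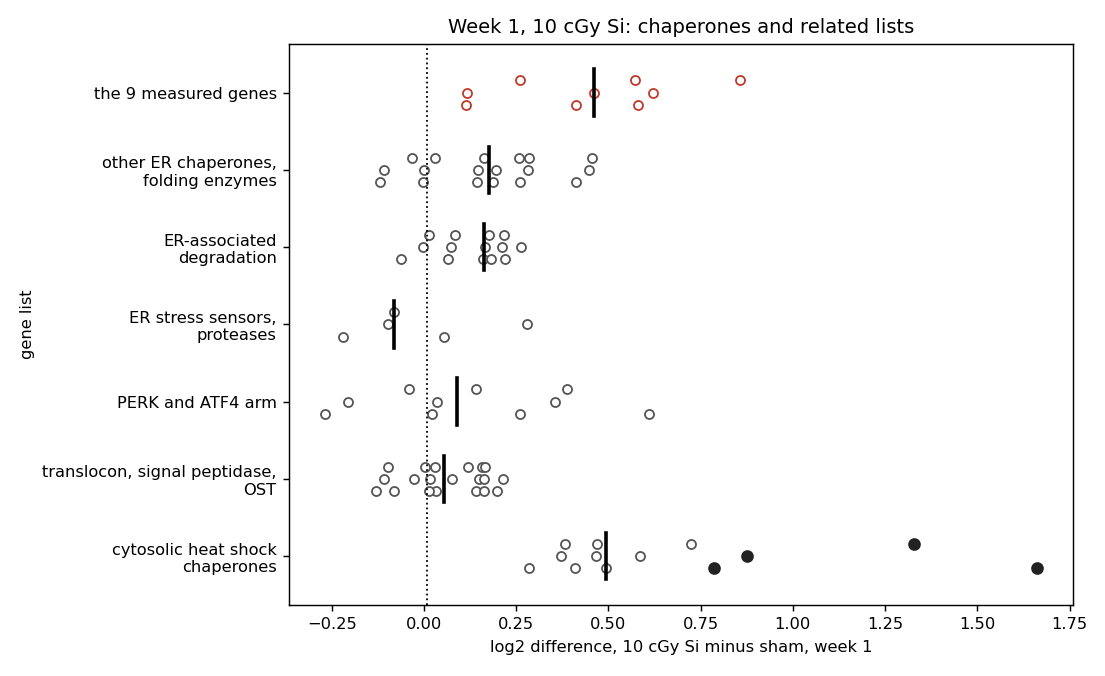
Log2 difference of 10 cGy Si minus sham in week 1 (x axis) for the 9 genes and for 6 other lists (y axis). Each point is a gene, filled where called at an adjusted p under 0.05, short bars are list medians and the dotted line is the median of all 13174 genes. Filled are 0 of the 9 genes and 4 of the 13 in the list of cytosolic heat shock chaperones, which includes the mitochondrial Hspd1 and Hspe1. OST stands for oligosaccharyltransferase.

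Genes that hold an ERSE in their own window but are not in the list were counted as well, a list added after the data had been seen. Of 32 such genes, 11 were tested in 10 cGy Si against sham at week 1, 9 of them lay above 0 with a median of 0.19, and Dnajc3 was the 1 at an unadjusted p under 0.05. Ero1b, with the difference given earlier, and Acacb (0.55 ± 0.51) were larger and less precise. Of 11 further genes with an ERSE-II, 8 were tested and 6 lay above 0, with a median of 0.09. Within the list, the 5 genes with an ERSE had week 1 differences from 0.11 for Calr to 0.62 for Hspa5, so the same element stood in the gene with the least difference and in genes well above it.

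Markers of the cell types that the gland could hold were read beside the chaperones. Between 10 cGy Si and sham at week 1, 0 markers of 13 cell types were called. Macrophage markers lay above 0 for 8 of 10, with a median of 0.31 and 2 at an unadjusted p under 0.05 (Mertk and Cd163), and their mean level ran from 7.58 to 7.99 after 10 cGy Si and from 7.32 to 7.84 in sham. That level was not particular to 10 cGy Si. In week 1 it ran from 7.83 to 8.05 after 30 cGy Si and from 7.80 to 8.35 after 100 cGy gamma. Luminal markers lay above 0 for 2 of 10, with a median of −0.27, and their mean level ran from 8.56 to 8.73 after 10 cGy Si and from 8.05 to 9.34 in sham. Plasma cells, which carry a large ER, were read from 8 markers, whose mean level ran from 5.10 to 5.87 after 10 cGy Si and from 5.17 to 6.02 in sham. B cell markers ran from 4.91 to 8.40 after 10 cGy Si and from 5.28 to 8.98 in sham, and muscle markers from 5.0 to 10.04 after 10 cGy Si and from 6.22 to 9.13 in sham. With the mean levels of lymphocyte, muscle, epithelial and brown adipocyte genes as covariates, 7 of the 9 genes were higher at an unadjusted p under 0.05 and 0 were called. The part of macrophages in the result was not tested.

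In weeks 4 and 12 none of the 9 genes was called against sham after any exposure, where 0 genes of all those tested were called by limma in each of the 6 comparisons. In week 4, Creld2 differed after 10 cGy Si by 0.31 ± 0.15 (adjusted p = 1.00), 1 of 9 genes at an unadjusted p under 0.05, against 2.4% of all genes. It had 8.34, 8.21 and 8.32 after 10 cGy Si, against 7.80, 7.74, 8.09 and 8.28 in sham, and the groups overlapped. Pdia6 differed after 30 cGy Si in week 4 by 0.36 ± 0.17 (adjusted p = 0.616), 1 of 9 higher at that threshold, against 6.1% of all genes. It had 8.67, 8.79 and 8.79 after 30 cGy Si, against 8.22, 8.13, 8.66 and 8.55 in sham, and these did not overlap, 1 of 9 genes, against 6.19% of all genes. The margin was narrow, with the lowest 30 cGy Si array at 8.666 and the highest sham array at 8.663. Herpud1 had 8.55, 8.39 and 8.59 after 30 cGy Si, against 8.61, 8.67, 8.69 and 8.84 in sham, and lay below every sham array, 1 of 9 genes, against 1.81% of all genes. This margin was narrow too, with the highest 30 cGy Si array at 8.593 and the lowest sham array at 8.605. The difference of Herpud1 was −0.19 ± 0.11 (adjusted p = 0.648). After 100 cGy gamma in week 4, 0 of 9 genes were higher at that threshold, against 3.66% of all genes. Sdf2l1 had 1 sham array of week 4, replicate 1, at 5.97 while the others lay between 7.23 and 7.82, and that array is one of the pair least like the rest.

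In week 12 the genes at an unadjusted p under 0.05 were Herpud1 and Xbp1. Herpud1 had 8.10, 8.29 and 8.28 after 10 cGy Si and 8.30, 8.11 and 8.19 after 30 cGy Si, against 8.35, 8.64 and 8.62 in sham. Both Si groups lay below every sham array, with differences of −0.31 ± 0.12 (adjusted p = 1.00) and −0.34 ± 0.12 (adjusted p = 0.906), and this was 1 of 9 genes lower at an unadjusted p under 0.05 in each comparison, against 2.18% and 2.44% of all genes. The shares of all genes that lay below sham without overlap were 3.71% and 3.39%. Herpud1 after 100 cGy gamma had 8.33, 8.64 and 8.47 and overlapped with sham. Xbp1 had 10.24, 10.20 and 10.32 after 10 cGy Si, 10.28, 10.31 and 10.18 after 30 cGy Si and 10.28, 10.42 and 10.15 after 100 cGy gamma, against 10.00, 9.96 and 9.98 in sham. All 9 irradiated arrays lay above the 3 sham arrays, which these comparisons share. The differences of Xbp1 were 0.27 ± 0.11, 0.28 ± 0.11 and 0.30 ± 0.11 for 10 cGy Si, 30 cGy Si and 100 cGy gamma (adjusted p of 1.00, 0.906 and 1.00), 1 of 9 genes higher in each, against 2.52%, 2.84% and 1.66% of all genes. The shares of all genes that lay above sham without overlap were 5%, 3.83% and 3.17%. Hspa5 and Hsp90b1 overlapped with sham after every exposure in week 12.

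Averaged over the 3 weeks, 0 of 9 genes were called after 10 cGy Si or 100 cGy gamma, where 0 of all genes were, and 0 of 9 after 30 cGy Si, where 0.0304% of all genes were. After 10 cGy Si, 4 of 9 were higher at an unadjusted p under 0.05, against 5.14% of all genes: Hspa5 by 0.36 ± 0.10 (adjusted p = 0.440), Sdf2l1 by 0.55 ± 0.19, Creld2 by 0.27 ± 0.09 and Hsp90b1 by 0.17 ± 0.06. Without sham week 4 replicate 1 the Sdf2l1 value was 0.41. These averages include the week 1 differences given earlier. In week 4 the differences were 0.24 for Hspa5, 0.59 for Sdf2l1, 0.31 for Creld2 and 0.02 for Hsp90b1. In week 12 Hspa5 averaged 10.23 against 10.00 in sham, and Sdf2l1 7.76 against 7.55. Creld2 then averaged 8.19 against 8.25 in sham, and Hsp90b1 10.06 against 10.00. Hspa5 was also higher by 0.22 ± 0.10 after 30 cGy Si, where Pdia6 was higher by 0.25 ± 0.11, and these 2 of 9 stood against 10.2% of all genes. After 30 cGy Si Herpud1 differed over the 3 weeks by −0.22 ± 0.07 (adjusted p = 0.189), lower at an unadjusted p under 0.05, 1 of 9 against 4.51% of all genes. After 100 cGy gamma, Hspa5 (0.24 ± 0.10) and Xbp1 (0.16 ± 0.06) were higher, 2 of 9 against 3.86% of all genes, and the Xbp1 value was 0.10 without sham week 1 replicate 3.

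Whether the 10 cGy Si difference of week 1 differed from those of the later weeks was tested as a difference of differences. Against week 4, 0 of 9 genes were called, where 0 of all genes were by limma, and 3 of 9 were higher in week 1 at an unadjusted p under 0.05, against 1.83% of all genes: Dnajb9 by 0.62 ± 0.23, Herpud1 by 0.40 ± 0.16 and Hsp90b1 by 0.39 ± 0.15. Without sham week 1 replicate 2 the Herpud1 value was 0.26. Against week 12, 0 of 9 were called, where 0.00759% of all genes were, 1 gene, and 4 of 9 were higher at an unadjusted p under 0.05, against 2.66% of all genes. They were Herpud1 by 0.77 ± 0.17 (adjusted p = 0.161), Creld2 by 0.63 ± 0.22, Dnajb9 by 0.62 ± 0.24 and Hsp90b1 by 0.35 ± 0.15. Without sham week 1 replicate 3, the Herpud1 value was 0.91 and it was called (adjusted p = 0.0313), while without sham week 1 replicate 2 it was 0.63. In weeks 1, 4 and 12, Dnajb9 averaged 8.66, 8.75 and 8.86 after 10 cGy Si. Its sham means were 8.08, 8.79 and 8.90. Hsp90b1 averaged 10.05, 9.95 and 10.06 after 10 cGy Si and 9.63, 9.93 and 10.00 in sham. Of these 2 groups it was thus mainly sham whose Dnajb9 and Hsp90b1 means differed between weeks. This was not particular to sham. In the same weeks Dnajb9 averaged 8.31, 8.67 and 8.95 after 30 cGy Si and 8.45, 8.67 and 8.78 after 100 cGy gamma. Hsp90b1 averaged 9.65, 9.87 and 10.13 after 30 cGy Si and 9.67, 9.87 and 10.05 after 100 cGy gamma. Creld2 averaged 8.45 in week 1 and 8.19 in week 12 after 10 cGy Si, and 7.88 and 8.25 in sham. Herpud1 averaged 9.05 and 8.23 after 10 cGy Si, and 8.59 and 8.54 in sham.

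Over time, Herpud1 was the gene of the list called in 10 cGy Si. Herpud1 after 10 cGy Si averaged 9.05 ± 0.13 in week 1, 8.76 ± 0.17 in week 4 and 8.23 ± 0.11 in week 12 (SD, n = 3 each). The arrays of week 12 and week 1 did not overlap, and Herpud1 fell in week 12 by 0.82 ± 0.12 relative to week 1, to 0.565 times its level (adjusted p = 7.01e-05). It was the 1 of 9 genes called there, where 9.09% of all genes tested were called, so the count of the list was near that of all genes. It was also the 1 gene lower at an unadjusted p under 0.05, against 13.3% of all genes, and the 1 gene lower without overlap, against 16.4%, and 0 of 9 were higher at that p, against 10.8%. The call held in all 6 fits that left out 1 array of those groups, with differences from −0.88 to −0.75, and in all 9 alternatives to the model, with adjusted p from 4.93e-06 to 0.0242. The Herpud1 mean of week 12 lay below that of week 1 in all 4 treatments: 8.20 against 8.45 after 30 cGy Si, 8.48 against 8.87 after 100 cGy gamma, and 8.54 against 8.59 in sham. In week 4 of 10 cGy Si, 0 of 9 genes were called against week 1, where 2.69% of all genes were, and Herpud1 (−0.29 ± 0.12, adjusted p = 0.208) and Xbp1 (−0.35 ± 0.11, adjusted p = 0.0949) were lower at an unadjusted p under 0.05, 2 of 9 against 9.53% of all genes, while 0 of 9 were higher, against 6.9%. For both, the groups did not overlap, against 13.4% of all genes.

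In sham, Dnajb9 and Hsp90b1 were higher in the later weeks than in week 1. Dnajb9 had 9.08, 8.59, 8.71 and 8.77 in week 4 and 8.71, 8.99 and 9.00 in week 12, against 7.96, 8.21 and 8.08 in week 1. It rose by 0.70 ± 0.16 in week 4 (adjusted p = 0.00878) and by 0.82 ± 0.17 in week 12 (adjusted p = 0.00585), each relative to week 1. Without sham week 1 replicate 1 the week 4 call was lost (adjusted p = 0.0537), and without both arrays least like the rest it was lost as well (adjusted p = 0.0565), while the week 12 call held in all 6 fits without 1 array. Fitted on only the groups compared, the calls of Dnajb9 were lost in week 4 (adjusted p = 0.313) and in week 12 (adjusted p = 0.354). Hsp90b1 had 10.13, 9.88 and 9.98 in week 12, against 9.71, 9.73 and 9.45 in week 1, and rose by 0.36 ± 0.11 (adjusted p = 0.0448). That call of Hsp90b1 was lost in 5 of the 6 fits without 1 array, all except that without sham week 12 replicate 2, with adjusted p from 0.0510 to 0.204, without both arrays least like the rest (adjusted p = 0.173), and with the replicate number as a block (adjusted p = 0.0528). With tissue covariates the call was lost as well (adjusted p = 0.0795). In week 4, Hsp90b1 differed from week 1 by 0.30 ± 0.10 (adjusted p = 0.0753), it was called without sham week 4 replicate 2 (adjusted p = 0.0396), and without both arrays least like the rest it was 0.18 (adjusted p = 0.381). The counts were 1 of 9 genes called in week 4, where 5.88% of all genes were, and 2 of 9 in week 12, where 5.12% were. At an unadjusted p under 0.05, 2 of 9 were higher in week 4, against 8.42% of all genes, and 3 of 9 in week 12, against 8.58%, Creld2 being the third (0.37 ± 0.16, adjusted p = 0.171). Groups did not overlap for Hsp90b1 and Dnajb9 in either week, 2 of 9 genes, against 5.55% of all genes in week 4 and 7.67% in week 12.

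The mean of Xbp1 was lower in the later weeks. Xbp1 averaged 10.07 ± 0.06 in week 4 (SD, n = 4) and 9.98 ± 0.02 in week 12 (SD, n = 3) of sham, against 10.28 ± 0.33 in week 1 (SD, n = 3), where replicate 3 lay at 9.92 and the others at 10.33 and 10.58. The week 12 difference was −0.30 ± 0.11 (adjusted p = 0.124), 1 of 9 genes lower at an unadjusted p under 0.05, against 11.6% of all genes, and without sham week 1 replicate 3 it was −0.48 and called (adjusted p = 0.0150), while without sham week 1 replicate 2 it was −0.15. The week 4 difference of sham was −0.21 ± 0.11 (adjusted p = 0.257), and without that array it was −0.39 and called (adjusted p = 0.0221). The Xbp1 mean of week 4 lay below that of week 1 in all 4 treatments, and so did that of week 12.

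**Figure D5:**
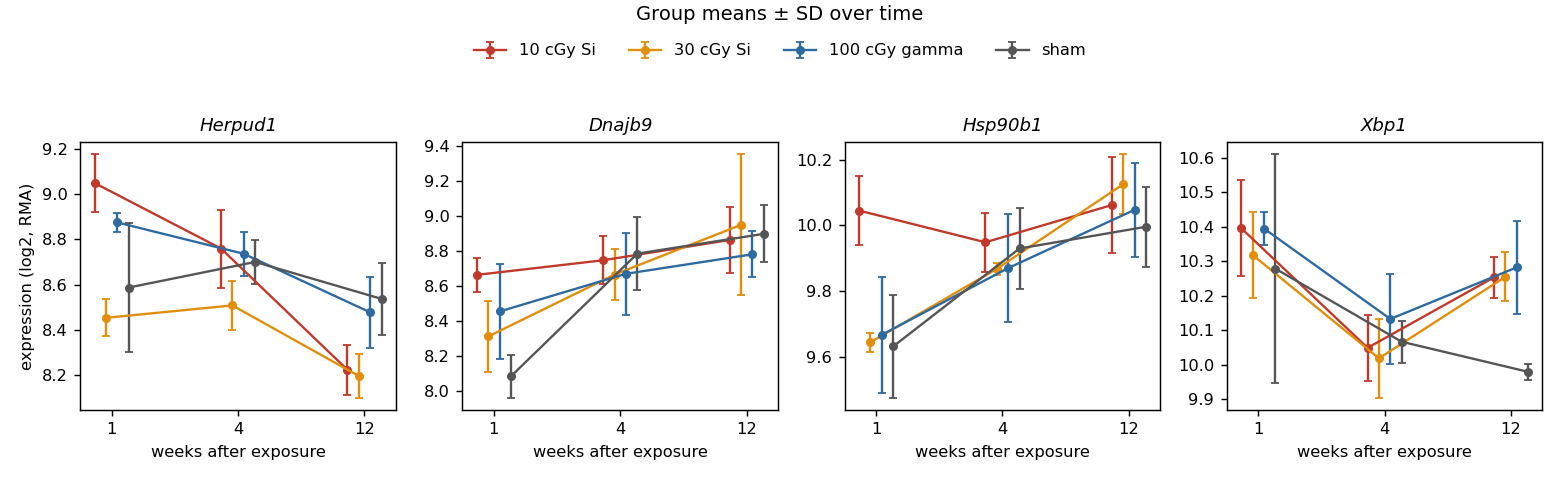
Group means of Herpud1, Dnajb9, Hsp90b1 and Xbp1 (log2 expression on the y axis, 1 panel per gene) at 1, 4 and 12 weeks after exposure, drawn at even spacing, for 10 cGy Si (red), 30 cGy Si (orange), 100 cGy gamma (blue) and sham (grey); bars are SD over 3 arrays, 4 for sham in week 4. Herpud1 after 10 cGy Si is at 8.23 in week 12 and 9.05 in week 1, and Dnajb9 in sham at 8.90 in week 12 and 8.08 in week 1.

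Over all 37 arrays, 6 of the genes for the most part correlated more with each other than with the other 3. This division was not set beforehand and only describes these correlations. Among Hspa5, Hsp90b1, Pdia6, Sdf2l1, Calr and Creld2, the 15 pairwise Pearson correlations ran from 0.356 to 0.832, the highest between Hspa5 and Creld2. The other 21 pairs, those with Dnajb9, Herpud1 or Xbp1, ran from −0.304 to 0.658, and 1 of them lay above 0.4, Hsp90b1 with Dnajb9. After the mean of each of the 12 groups was taken away, Hspa5 and Creld2 still correlated at 0.832 and Pdia6 and Calr at 0.867, while Hsp90b1 and Dnajb9 correlated at 0.097. The division was then less clear, since Hsp90b1 and Sdf2l1, both among the 6, correlated at 0.124, below the 0.366 of Pdia6 with Xbp1 and the 0.353 of Hsp90b1 with Xbp1. The median correlation of a gene with the 8 others was 0.62 for Hspa5 and −0.10 for Herpud1. The arrays share groups, weeks and the mix of tissue, so these values describe the 37 arrays and were not tested.

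Creld2 was the gene of all 13173 others whose levels were most like those of Hspa5 over the 37 arrays, and Calr ranked 6 and Sdf2l1 ranked 10, against ranks of 5583 for Herpud1 and 2744 for Xbp1. With group means taken away Creld2 ranked 2, Calr 11 and Sdf2l1 267. Outside the list, the 5 most like Hspa5 were Hsp90aa1 (0.792), Txndc11 (0.774), Manf (0.774), P4ha1 (0.719) and Hspa13 (0.705), with a median of 0.017 over all genes tested. With group means taken away the 5 were Txndc11 (0.845), Mrpl23 (0.815), Tvp23b (0.809), Cct8 (0.808) and Ube2n (0.808). Of the mean marker levels of the 13 cell types, that of fibroblasts correlated most with Hspa5 over the same arrays, at 0.380. Macrophages followed at 0.315 and basal epithelium at 0.311, luminal epithelium stood at 0.158, and plasma cells were lowest at −0.188.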

How the data were processed

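Total RNA of mammary tissue was measured on 37 Affymetrix arrays, 1 per sample. Per the submitters' processing notes, the authors deposited log2 values made by RMA with the oligo package, whose versions are not given in the sources used here. No further normalization was applied to the 35556 probe sets. Titles gave the groups. The platform annotation listed 23099 probe sets, 21218 with 1 symbol, 1881 with several and 12457 not listed. Of the 18820 named genes, those with a mean above their 30th percentile (log2 4.04) were tested.

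A limma 3.58.1 (R 4.3.3) model with 12 group means was fitted to all arrays (25 residual and 3.40 prior degrees of freedom), and tests were two-sided, over 20 comparisons, with Benjamini-Hochberg adjustment within each. The test was checked on simulated data. Precision is limited by the number of arrays. The listed genes are named throughout; of other lists, called genes or up to 4 with the largest difference. Genes and lists were chosen with earlier results of these data known. Same-numbered replicates of different groups had a median correlation of deviations of −0.004, against −0.007 for others. Within a week the medians were 0.021 and −0.014, and same-numbered pairs ran from −0.462 to 0.652. No pairing by number was seen, but medians cannot exclude that some samples were paired. Alternatives were 2 filters, the mean of probe sets, quantile normalization, trend and robust settings, array weights, a replicate block, fits of only the groups compared, tissue covariates and leaving out arrays.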

Additional observations from a re-analysis of the deposited data

How the results depend on the processing

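Over all 180 differences of the 9 genes, 7 changed sign with quantile normalization, 23 with array weights, 20 with tissue covariates and 1 with the replicate block. When 1 array was left out, 113 of 1584 did. Signs were also followed for 51 differences, all those of 10 cGy Si against sham at week 1 and, elsewhere, those at an unadjusted p under 0.05. That choice itself made a stable sign likely. Of the 51, 0 changed sign under any of the 9 alternatives to the model, and 1 changed sign when arrays were left out. This was Xbp1 in 10 cGy Si against sham at week 1, which was −0.0602 without sham week 1 replicate 3 and without both arrays least like the rest, a choice made after seeing the data, and ran from −0.0602 to 0.268 over the fits without 1 array. The cause was not tested. The count of called genes of the list moved as follows. In 10 cGy Si against sham at week 1 it was 0, and 2 with array weights (Dnajb9 and Herpud1), 1 without both arrays least like the rest, and 0 to 1 when 1 array was left out. In 10 cGy Si against 30 cGy Si it was 1, and 0 with no filter, with the mean of probe sets, with only the groups compared and with tissue covariates, 2 with array weights, and 0 to 1 when 1 array was left out. For 30 cGy Si over 3 weeks it was 0, and 1 with array weights. For the effect of week 1 minus that of week 12 it was 0, and 1 without both arrays, and 0 to 1 when 1 array was left out. In 10 cGy Si, week 4 against week 1 gave 0, and 1 with array weights and with tissue covariates, and week 12 against week 1 gave 1, and 2 with tissue covariates. In sham, week 4 against week 1 gave 1, and 2 with array weights and with tissue covariates, 0 with only the groups compared, and 0 to 2 when 1 array was left out. Week 12 against week 1 of sham gave 2, and 1 with no filter, quantile normalization, array weights and the replicate block, 0 with only the groups compared, and 1 to 2 when 1 array was left out. With tissue covariates Hsp90b1 was no longer called there (adjusted p = 0.0795), while Xbp1 was (adjusted p = 0.0118). The replicate block changed no other call of the 9 genes. Counts of the 9 genes higher at an unadjusted p under 0.05 in week 1 were 5 to 6 for 10 cGy Si against sham, 2 to 4 against 30 cGy Si and 1 to 3 against 100 cGy gamma when 1 array was left out. An adjusted p above the threshold does not show that levels were equal.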
